A study of Mus musculus with 13 samples.

Results

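The genes that mark tuft cells were followed through thymic damage and repair in bulk RNA-seq of CD45- thymic stromal cells, the nonhematopoietic fraction of the thymus. The 10 genes were taken from a list fixed by name and matched by mouse symbol, and all 10 were found among the 53379 genes of the count table. Libraries came from thymi of wild-type C57BL/6 mice aged 2 months, with 4 libraries at steady state and 3 libraries for each of 3 times after a sublethal dose of total body irradiation (TBI), namely days 1, 4 and 7. The series design describes the steady-state controls as PBS, whereas their treatment label reads untreated. Counts per library totaled between 15721866 and 52056896 (median 44078906). The labels tie no library to a particular mouse and do not state whether mice were pooled, so the p-values measure the spread between these libraries. Selection of CD45- cells should remove blood cells, but Ptprc, the gene of CD45, had 606 and 224 CPM in replicates 2 and 3 of day 7, against 4.07 to 4.54 CPM at day 4 and 12.7 to 119 CPM in the remaining 8 libraries.

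Tuft cells are chemosensory epithelial cells of mucosal surfaces, and the thymic medulla holds a counterpart that belongs to the mimetic thymic epithelial cells (TECs), medullary cells that take on programs of peripheral tissues. The transcription factor POU2F3 is needed for their formation. They sense ligands with a taste-type cascade, in which a G protein activates a phospholipase C and calcium opens the cation channel TRPM5, and they release interleukins, eicosanoids and acetylcholine. Tuft cells are rare among CD45- cells. In bulk RNA, fewer tuft cells and less RNA of a gene per tuft cell cannot be told apart.

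All 10 genes passed the filter on low counts, and their levels spanned a wide range. Per length of exon, the mean over the 13 libraries was highest for Avil, at 14.9 ± 7.53 CPM per kb (counts scaled to library size, per kilobase of exon; SD, n = 13). Dclk1 followed at 11.5 ± 2.27, Gnb3 at 6.28 ± 3.05, Trpm5 at 5.97 ± 3.31, Pou2f3 at 4.02 ± 1.55 and Sh2d6 at 3.79 ± 2.11 CPM per kb. The lowest were Plcb2 at 1.64 ± 1.26, Gfi1b at 0.945 ± 0.8287, Il25 at 0.594 ± 0.327 and Chat at 0.409 ± 0.278 CPM per kb. Each gene overlapped its neighbors in this order over the libraries. The length covers all annotated exons of a gene, which for Dclk1 came to 15296 bases, so a short isoform would be understated on this scale.

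Promoters are shown for Avil, the member with the highest mean level per length over the 13 libraries, and for Trpm5, whose level moved with that of Avil. They were read from RefSeq on GRCm38.p6, from 250 bases before to 50 bases after the annotated start, and each is printed 5′ to 3′ on the strand of its gene. The Avil promoter lies at chr10:127000459-127000758 on the plus strand, and the Trpm5 promoter at chr7:143094593-143094892 on the minus strand. Capitals mark ATGCAAA on either strand, the core of the octamer letters bound by POU factors.
Avil: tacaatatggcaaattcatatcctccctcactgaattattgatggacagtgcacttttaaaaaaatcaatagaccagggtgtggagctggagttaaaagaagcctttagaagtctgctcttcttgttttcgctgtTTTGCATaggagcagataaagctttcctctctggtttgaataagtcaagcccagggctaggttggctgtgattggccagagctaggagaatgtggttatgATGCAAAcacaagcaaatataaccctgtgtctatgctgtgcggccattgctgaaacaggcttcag
Trpm5: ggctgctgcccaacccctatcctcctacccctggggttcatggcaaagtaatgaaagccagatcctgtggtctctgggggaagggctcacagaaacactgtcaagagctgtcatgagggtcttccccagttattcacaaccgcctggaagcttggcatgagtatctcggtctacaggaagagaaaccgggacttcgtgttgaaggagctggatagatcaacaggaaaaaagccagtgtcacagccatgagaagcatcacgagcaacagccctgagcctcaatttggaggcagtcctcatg
The full octamer ATGCAAAT was searched on both strands and stood in 0 of the 7 members with a promoter in the table, against 1.97% of all genes there. Its shorter form ATGCAAA, which is part of it, stood in 1 of 7, against 5.24% of all genes. Avil held both matches, starting 115 and 15 bases before the start site.

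The transcription factors came first. Pou2f3, the master regulator of the tuft lineage, had 18.8, 5.43, 21.1 and 9.68 CPM in the 4 steady-state libraries (13.8 ± 7.42 CPM; SD, n = 4). It had 12.9, 12.3 and 17.6 CPM at day 1 and 12.9, 11.8 and 15.4 CPM at day 4. At day 7 its levels were 6.93, 9.20 and 7.38 CPM (7.84 ± 1.20; SD, n = 3). The day 7 libraries lay below each library of days 1 and 4, while the steady-state libraries lay on either side of them. The log2 fold change was −0.86 for day 7 against day 1 (SE 0.411), −0.77 against day 4 (SE 0.411) and −0.81 against steady state (SE 0.389), with adjusted p-values of 0.224, 0.342 and 0.394 in edgeR's quasi-likelihood test.

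Gfi1b, a transcriptional repressor of tuft cells that also acts in erythroid and megakaryocyte cells, had 3.11, 0.60, 2.71 and 0.82 CPM at steady state. It had 2.12, 1.35 and 1.38 CPM at day 1 and 0.65, 1.21 and 1.44 CPM at day 4. Its day 7 levels were 0.51, 5.96 and 0.60 CPM. A single library, replicate 2 of day 7, held the highest level of all 13. The same library had 5.39 CPM of Gata1, a factor of erythroid and megakaryocyte cells, against at most 0.702 CPM in the other 12, and its thymocyte markers summed to 4388 CPM. Gata1 is 1 gene of the erythroid list, which summed to 805 CPM there, below the 1570 to 3615 CPM of steady state. The erythroid score, the mean log2(CPM + 0.5) of that list, was 4.64 there, the highest of all 13. Megakaryocyte and platelet markers summed to 8.19 CPM, the lowest of all 13. With that library the log2 fold change of day 7 against steady state was 0.37 (SE 0.793, edgeR adjusted p = 0.950), and without it −1.66. The part of these other cells in the Gfi1b level was not tested.

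The signaling cascade was represented by Gnb3, Plcb2 and Trpm5. Gnb3, the G protein beta subunit of taste-type cells, had 20.6, 7.40, 31.0 and 10.6 CPM at steady state. After TBI it had 23.1, 13.9 and 20.9 CPM at day 1, 12.6, 15.4 and 30.1 CPM at day 4, and 9.97, 12.4 and 6.64 CPM at day 7. The day 7 libraries lay below all libraries of days 1 and 4, but within the range of the steady-state libraries except for the lowest. Its log2 fold change was −0.996 against day 1 (SE 0.496) and −1.003 against day 4 (SE 0.496), with edgeR adjusted p-values of 0.244 and 0.303.

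Trpm5, the calcium-activated cation channel at the end of the cascade, had 32.1, 17.6, 74.3 and 20.7 CPM at steady state. It had 52.6, 33.3 and 43.2 CPM at day 1, 33.4, 41.2 and 83.8 CPM at day 4, and 24.7, 26.4 and 13.5 CPM at day 7. Again the day 7 libraries were lower than every library of days 1 and 4. Between days 7 and 4 the log2 fold change was −1.30 (SE 0.518, interval at 95% from −2.41 to −0.18), with an edgeR adjusted p of 0.195, the smallest of any member in any comparison. Of its exonic bases, 3.44% are shared with Tssc4.

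Plcb2, the phospholipase C of the cascade, is also used by blood cells, and it did not follow Gnb3 and Trpm5. The steady-state libraries had 18.4, 4.23, 27.7 and 5.42 CPM, followed by 4.33, 8.08 and 11.1 CPM at day 1, 7.16, 3.79 and 6.57 CPM at day 4, and 5.58, 26.6 and 12.04 CPM at day 7. The high day 7 library was again replicate 2. Thymocyte markers, a list of 9 genes that were all detected, summed to 189, 4388 and 1949 CPM in the day 7 libraries, in the same order as Plcb2, and to 17.6 to 29.7 CPM at day 4. The log2 fold change of Plcb2 was 1.34 for day 7 against day 4 (SE 0.706, edgeR adjusted p = 0.337), and −2.36 with the thymocyte score as a covariate, although the thymocyte sums of days 4 and 7 did not overlap, so that thymocyte content and day cannot be told apart there.

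Among genes of cell shape, Avil encodes advillin, an actin-binding protein of the tuft. Its 4 steady-state libraries had 52.1, 22.8, 111 and 33.8 CPM (54.8 ± 39.2 CPM; SD, n = 4), a wider range than at any time after TBI. Avil had 68.6, 46.1 and 61.0 CPM at day 1 (58.6 ± 11.4), 40.8, 49.1 and 83.9 CPM at day 4 (57.9 ± 22.9) and 27.8, 38.3 and 21.3 CPM at day 7 (29.1 ± 8.59; SD, n = 3 each). The day 7 libraries were lower than each library of days 1 and 4 and overlapped those of steady state. The log2 fold change was −1.01 against day 1 (SE 0.489), −0.99 against day 4 (SE 0.489) and −0.91 against steady state (SE 0.463), and the edgeR adjusted p-values were 0.232, 0.300 and 0.434. Of the exonic bases of Avil, 4.86% are shared with Tsfm.

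Sh2d6 encodes an adaptor protein with an SH2 domain. Before TBI it had 7.08, 2.40, 10.7 and 3.44 CPM, and afterwards 14.2, 6.08 and 7.92 CPM at day 1, 4.84, 5.55 and 11.7 CPM at day 4, and 3.59, 5.90 and 2.33 CPM at day 7. Day 7 lay below day 1 in every library (log2 fold change −1.25, SE 0.574, edgeR adjusted p = 0.204), and overlapped day 4. Dclk1, a microtubule-associated kinase used as a tuft marker and also expressed in neurons and other cells, behaved otherwise. The steady-state levels were 156, 198, 216 and 172 CPM, beside 197, 236 and 200 CPM at day 1, 139, 138 and 153 CPM at day 4, and 199, 123 and 149 CPM at day 7. The day 4 libraries overlapped neither steady state nor day 1, and lay within the range of day 7, whose replicate 2 was the lowest of all. For day 4 against day 1 the log2 fold change was −0.56 (SE 0.217, edgeR adjusted p = 0.272).

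Of the effectors, Il25, the tuft cytokine that activates innate lymphoid cells, was near the limit of the depth. It had 6 to 63 counts in a library. The steady-state libraries had 1.38, 0.33, 0.80 and 0.82 CPM, those after TBI 0.68, 0.46 and 0.59 CPM at day 1, 0.45, 0.67 and 1.15 CPM at day 4, and 0.23, 0.51 and 0.16 CPM at day 7. The day 7 libraries held the 2 lowest values of all 13 libraries but overlapped every other condition. Its log2 fold change of −1.45 for day 7 against steady state (SE 0.563, edgeR adjusted p = 0.258) was the lowest among the members in that comparison. Chat, the enzyme that makes acetylcholine, had 4.36, 0.48, 4.80 and 1.21 CPM in steady-state libraries, and 1.75, 1.81 and 2.20 CPM at day 1, 0.65, 1.84 and 2.15 CPM at day 4, and 1.03, 1.78 and 0.92 CPM at day 7. All conditions overlapped for Chat, and its log2 fold change for day 7 against steady state was −1.13 (SE 0.671, edgeR adjusted p = 0.547).

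**Figure D1:**
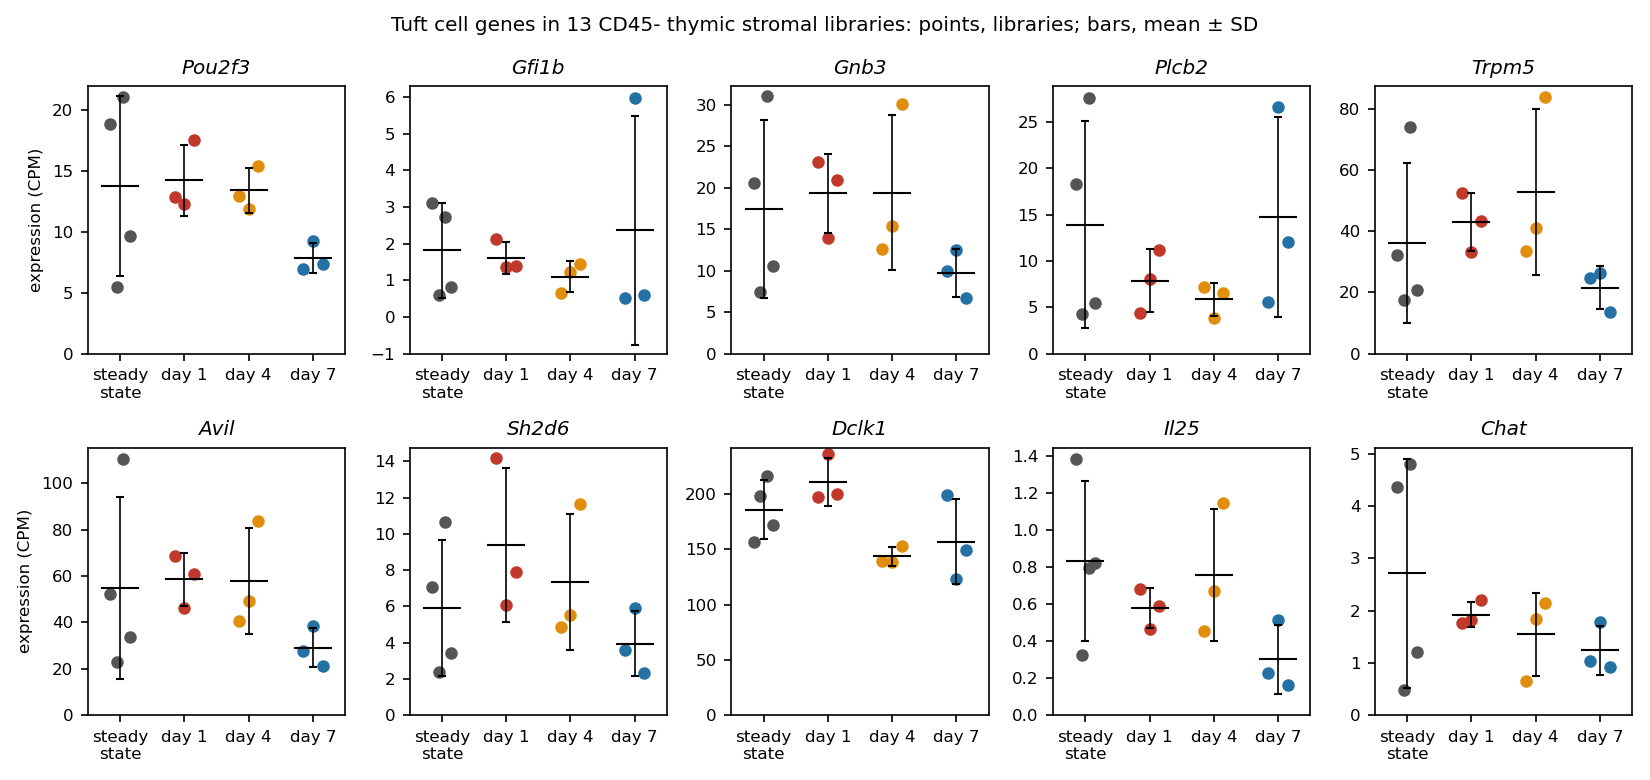
Expression of the 10 tuft cell genes in CPM (vertical axes, linear) by condition (horizontal axes). Points are the 13 libraries, and bars give the mean ± SD. The day 7 points of Avil, Trpm5, Pou2f3 and Gnb3 lie below all points of days 1 and 4, and the high day 7 point of Gfi1b, at 5.96 CPM, is 1 library.

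No member passed the threshold in any of the 6 comparisons between conditions. With edgeR at an adjusted p of 0.05 or less, 0 of 10 were called at day 1 against steady state, where 2.35% of the 19984 tested genes were called, 0 of 10 at day 4 (0.29% of all genes) and 0 of 10 at day 7 (0.005%). Between time points, 0 of 10 were called at day 4 against day 1 (1.43% of all genes), at day 7 against day 1 (8.13%) and at day 7 against day 4 (3.9%). The test for any difference among the 4 conditions also called 0 of 10, against 6.66% of all genes. DESeq2 called 0 of 10 in each of the 7 tests, while of all genes it called 7%, 3.23% and 5.41% for days 1, 4 and 7 against steady state, 4.8% for day 4 against day 1, 14.7% for day 7 against day 1, 9.6% for day 7 against day 4 and 18.3% for any condition. At an unadjusted p under 0.05, the edgeR counts were 0, 0 and 1 of 10 for days 1, 4 and 7 against steady state (all genes 17.2%, 13% and 13.5%), 1 for day 4 against day 1 (13.7%), 1 for day 7 against day 1 (23.9%), 2 for day 7 against day 4 (18.7%) and 0 for any condition (24%).

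At day 7 the log2 fold change was negative for 8 of 10 against steady state, for 8 of 10 against day 1 and for 7 of 10 against day 4. The median over the members was −0.78, −0.90 and −0.84, beside 0.00, 0.05 and 0.11 over all genes tested. At days 1 and 4 against steady state the members' median was 0.07 and −0.07, beside −0.10 and −0.13 over all genes. The 3 comparisons with day 7 share its 3 libraries, and are not independent. The members that were positive at day 7 against day 1 were Plcb2 and Gfi1b, which were joined by Dclk1 against day 4.

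**Figure D2:**
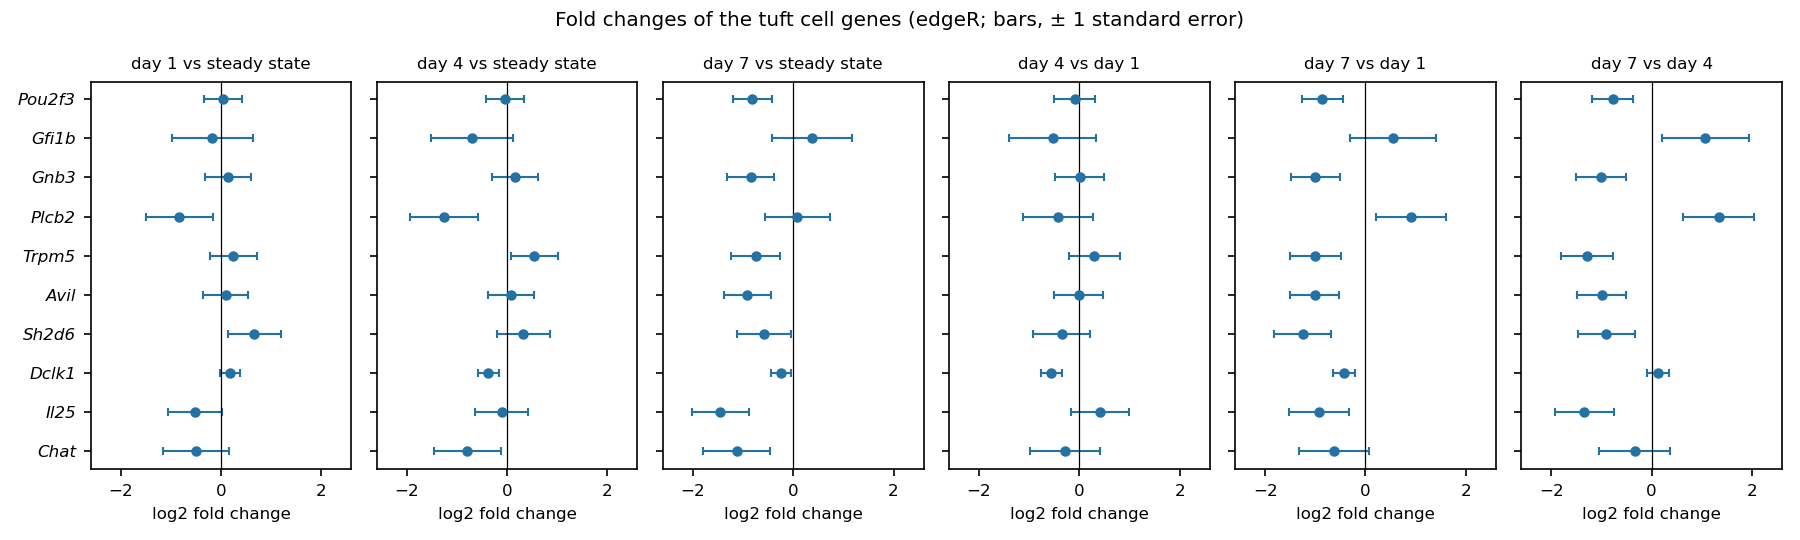
Log2 fold changes of the 10 genes from edgeR (horizontal axes) in the 6 comparisons, 1 panel each. Points are estimates and bars ± 1 SE. In the 3 panels with day 7, most points lie left of 0, with Gfi1b and Plcb2 to the right of it or near it.

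Ranges over the libraries were also compared. Day 7 lay wholly below day 1 for 5 of 10 members, Avil, Trpm5, Pou2f3, Gnb3 and Sh2d6, where 14.8% of all genes did so. These 5 genes moved together over the libraries (pairwise r of 0.793 to 0.984), so they are not 5 separate observations. The members were also chosen with earlier results of these data known. Day 7 lay wholly below day 4 for 4 of 10, the same genes without Sh2d6 (14% of all genes), and these 4 were also below days 1 and 4 together (7.26% of all genes). Against steady state, 0 members lay wholly below (4.67% of all genes) or above (2.82%) at day 7, and 0 below (8.56%) or above (7.25%) at day 1. Dclk1 was the only member with day 4 wholly below steady state (8.22% of all genes) and below day 1 (13.7%), and 0 members had day 4 above steady state (6.44%).

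Some sums of epithelial markers were also low at day 7, that of medullary TECs against every other condition and the pan-epithelial one only against days 1 and 4. Pan-epithelial markers, a list of 9 genes with Epcam and keratins that were all detected, summed to 3013 to 4084 CPM at day 4 and 1846 to 2788 CPM at day 1, and to 800 to 1362 CPM at day 7. The sum at steady state was 932 to 2694 CPM, so that day 4 lay above it, where the members' median log2 fold change was −0.07. Markers of medullary TECs, 6 genes all detected, summed to 71.5 to 108 CPM at day 7, below the 126 to 457 CPM of steady state, the 202 to 281 CPM of day 1 and the 176 to 250 CPM of day 4. Gene by gene, Aire, Fezf2 and Ccl21a lay below every other condition at day 7, whereas Itgb4, Cd80 and Tnfrsf11a did not. Itgb4 had 53.0, 37.4 and 68.8 CPM at day 7, beside 46.5 to 81.1 CPM at steady state. Markers of cortical TECs, 6 genes all detected, summed to 1056 to 1690 CPM at day 7. This overlapped steady state (1081 to 2672 CPM) and day 1 (893 to 1840 CPM), and lay below day 4 (1809 to 3729 CPM). Markers of other mimetic TECs, 6 genes all detected, summed to 180 to 626 CPM at steady state, to 230 to 472 CPM at day 1, to 223 to 485 CPM at day 4 and to 187 to 424 CPM at day 7, with overlap throughout. With the pan-epithelial score as a covariate, the log2 fold change of Avil was −0.17 for day 7 against day 1 and 0.10 against day 4, and that of Pou2f3 was 0.15 and 0.52. The pan-epithelial sums of day 7 did not overlap those of days 1 and 4, so epithelial content and day cannot be told apart there. The sums of day 7 and steady state did overlap. Against steady state, the log2 fold change of Pou2f3 at day 7 was −0.075 with this score and −0.81 without it. The part of epithelial content in that value was not tested.

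Epcam alone gave a different ranking of the libraries. Avil stood at 0.336 to 4.89 times the level of Epcam, with the highest ratio in replicate 1 of day 1. There Epcam had 14.0 CPM while Krt18, another epithelial marker, had 565 CPM. Ratios of 2.01 and 3.29 stood in replicates 2 and 3 of day 4, where Epcam had 24.4 and 25.5 CPM, against 0.409 in replicate 1 with 99.8 CPM. No order of the conditions could be read from this ratio.

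Tags end the column names, and the sources used here do not state their meaning. By how they start, they divide the libraries into 3 families that cut across conditions. A later part of the tag, shared by all day 7 columns, stood in no other column. That part cannot be told apart from day 7. In the family starting with k3, Avil had 22.8 CPM at steady state, 49.1 and 83.9 CPM at day 4, and 27.8 and 38.3 CPM at day 7. In the family starting with kk it had 33.8 CPM at steady state, 68.6 CPM at day 1 and 21.3 CPM at day 7. Day 7 was thus lower than days 1 or 4 within both families, while against steady state it was higher in the first and lower in the second. The remaining family held no day 7 library. It held the 2 steady-state libraries with the higher Avil, at 52.1 and 111 CPM. These 2 were also the highest at steady state for the other members except Dclk1 and Il25. Epcam had 99.8 to 155 CPM in that family and 14.0 to 40.1 CPM in the others. With the tag family as a covariate, the log2 fold change of Pou2f3 at day 7 against steady state was −0.34, against −0.81 without it.

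A group of members kept its proportions from library to library. The Avil level itself varied 5.21-fold over the 13 libraries. Gnb3 stood at 0.280 to 0.396 times the CPM of Avil (median 0.325), a 1.41-fold range, and Trpm5 at 0.613 to 0.999 (median 0.723), a 1.63-fold range. Pou2f3 stood at 0.184 to 0.361 times Avil and Sh2d6 at 0.0962 to 0.207. The mean ratio of Gnb3 was 0.329 in the steady-state libraries, and 0.327, 0.327 and 0.332 in those of days 1, 4 and 7. Trpm5 relative to Avil was 0.820 to 0.999 in the day 4 libraries and 0.613 to 0.773 in the steady-state libraries, ranges that did not overlap. Day 4 also lay above day 1 (0.708 to 0.767) for this ratio, and overlapped day 7 (0.634 to 0.890). Other ratios separated too, such as Plcb2 at day 7 (0.201 to 0.696) from days 1 and 4 (at most 0.183). These ranges of ratios were not tested, and no share over all genes was taken for them.

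Other members did not keep such proportions. The ratio to Avil varied 11.02-fold for Plcb2, 9.84-fold for Gfi1b, 5.30-fold for Chat, 4.78-fold for Dclk1 and 3.69-fold for Il25. For Plcb2 and Gfi1b the highest ratio, 0.696 and 0.156, was in replicate 2 of day 7. Dclk1 itself varied less than Avil did. Its SD on the log2(CPM + 0.5) scale within conditions was 0.22, against 0.66 for Avil and a median of 0.37 over all genes tested.

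**Figure D3:**
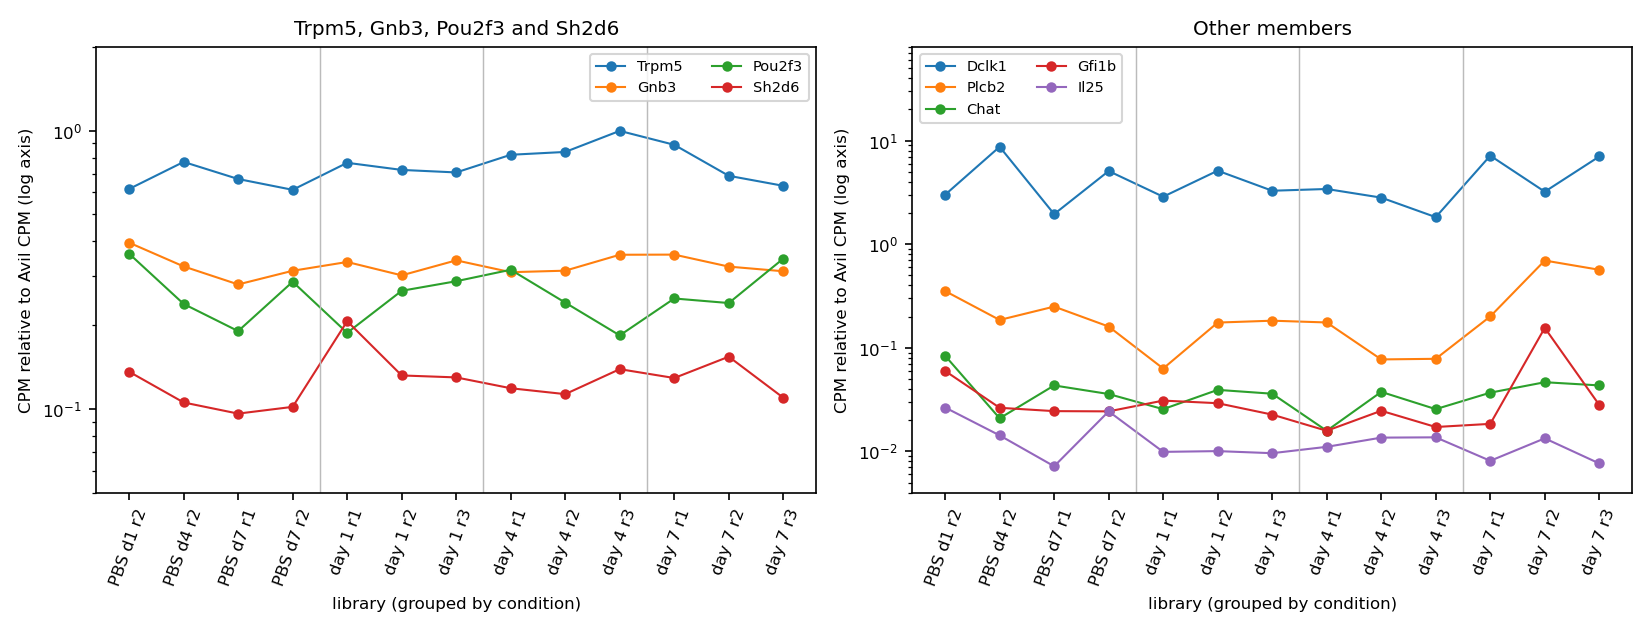
CPM of each member divided by the CPM of Avil (vertical axes, log scale) in the 13 libraries (horizontal axes, grouped by condition and separated by gray lines). Gnb3 stays between 0.280 and 0.396, while Plcb2 and Gfi1b peak in replicate 2 of day 7.

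Correlations over the 13 libraries described the same division. Pearson's r of log2(CPM + 0.5) with Avil was 0.984 for Gnb3, 0.962 for Trpm5, 0.938 for Sh2d6 and 0.893 for Pou2f3. Spearman's rho for Gnb3 was 1, so that both genes ranked the libraries in the same order. Chat had an r of 0.786 and Il25 of 0.714, while Gfi1b had 0.536, or 0.811 without replicate 2 of day 7. Plcb2 and Dclk1 had an r of 0.283 and 0.192. After removal of the condition means, r was 0.976 for Gnb3, 0.970 for Trpm5, 0.946 for Sh2d6 and 0.843 for Pou2f3. It was 0.868 for Chat, 0.696 for Gfi1b, 0.679 for Plcb2, 0.672 for Il25 and 0.044 for Dclk1, so the division was less sharp within conditions. Without the 2 libraries farthest from the median of Avil, r was 0.982 for Gnb3, 0.944 for Trpm5, 0.949 for Sh2d6 and 0.858 for Pou2f3. The points share depth and the makeup of each library, and these values are descriptions.

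**Figure D4:**
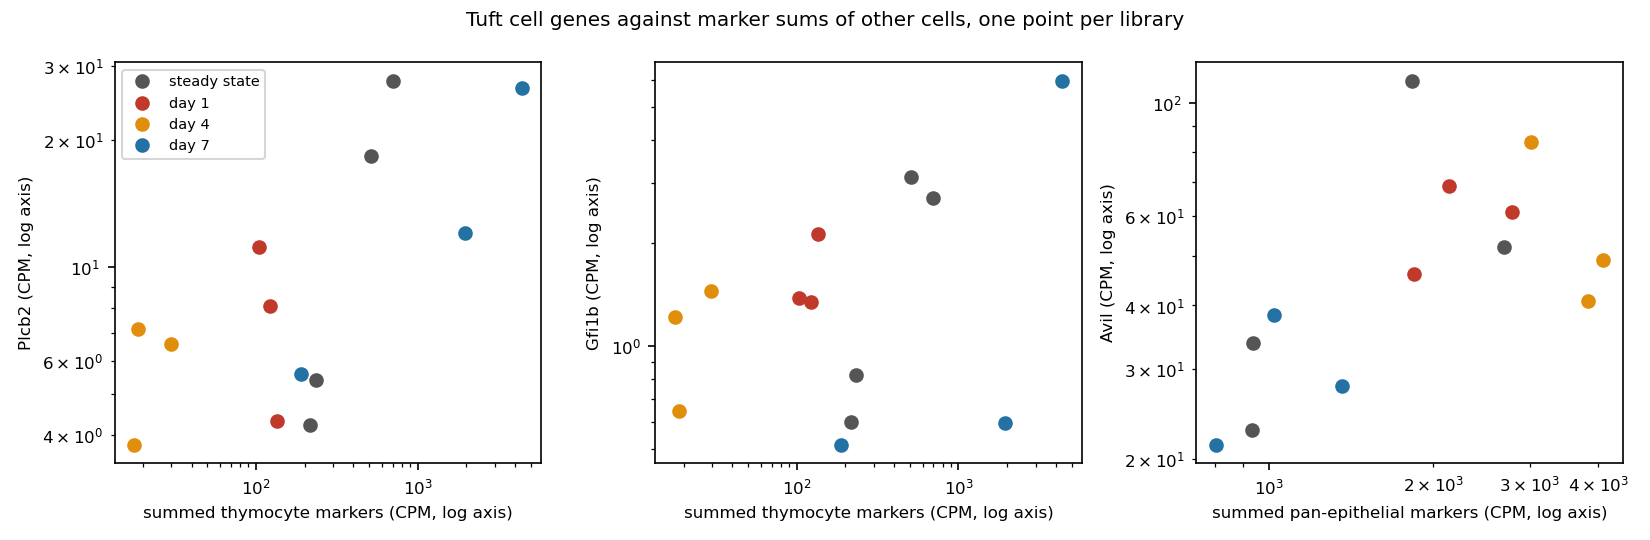
Plcb2 and Gfi1b against summed thymocyte markers, and Avil against summed pan-epithelial markers (CPM, all axes log scale), with 1 point per library colored by condition. The day 7 library with 4388 CPM of thymocyte markers has the highest Gfi1b level, and the 3 day 7 libraries have 800 to 1362 CPM of pan-epithelial markers.

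The mean pattern of Avil, Trpm5, Pou2f3 and Sh2d6 was then compared with every tested gene outside the 10 members. Gnb3 is not part of the pattern but, as a member, was left out of this ranking too. Highest was Alox5, the lipoxygenase that starts leukotriene synthesis (r = 0.992 over 13 libraries), followed by 1810046K07Rik (0.979), Mctp1 (0.970), Sh2d7 (0.966) and Slitrk6 (0.964). Aox4 (0.956), Krt23 (0.950), Gnat3 (0.949), Krt15 (0.948) and Olfr461 (0.944) completed the 10 most alike. Gnat3 encodes gustducin, the G protein alpha subunit of taste cells, Krt15 and Krt23 encode keratins, and Olfr461 encodes an olfactory receptor. Of these 10 genes, 2 belonged to the lists of other tuft genes, Alox5 and Gnat3. Alox5 had 26.7, 7.03, 45.7 and 12.7 CPM in steady-state libraries, and 28.5, 18.6 and 26.1 CPM at day 1, 19.4, 22.4 and 42.1 CPM at day 4, and 10.3, 16.8 and 8.16 CPM at day 7. Like Avil, it was below all libraries of days 1 and 4 at day 7. Because Alox5 was picked by its likeness to a pattern that includes Avil, this is not a separate observation.

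**Figure D5:**
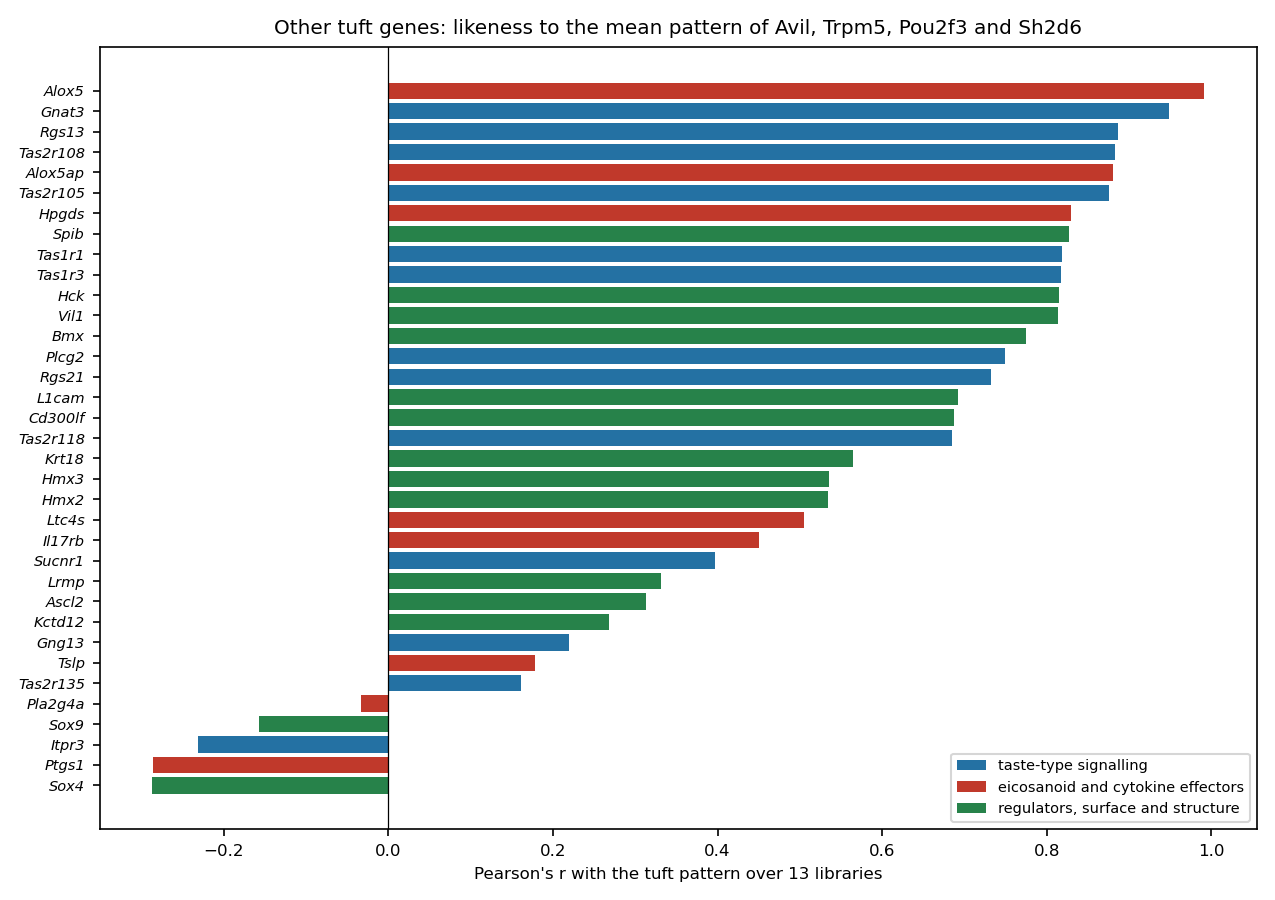
Pearson's r over 13 libraries of 35 other tuft genes (vertical axis) with the mean pattern of Avil, Trpm5, Pou2f3 and Sh2d6 (horizontal axis), colored by list. Alox5 (0.992) and Gnat3 (0.949) are at the top, and 5 genes have an r below 0.

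The lists of other tuft genes held 38 genes, of which 35 passed the filter. Their log2 fold change was negative for 25 of 35 at day 7 against steady state, 27 of 35 against day 1 and 29 of 35 against day 4, with medians of −0.43, −0.48 and −0.37. In the taste-type signaling list, 13 of 16 were tested and 0 were called in any comparison by edgeR. At an unadjusted p under 0.05 there were 2 of 13 at day 7 against steady state (all genes 13.5%), 1 of 13 against day 1 (23.9%) and 0 in each other comparison. DESeq2 called 1 of 13, the sweet and umami receptor gene Tas1r1, at day 7 against day 1 (14.7% of all genes), a gene named here after its values were seen. Its genes with the highest CPM were Itpr3, the receptor that releases calcium, Gnat3, Plcg2, a phospholipase C, and Rgs13, a regulator of G protein signaling. Gnat3 had 29.6 CPM at steady state and 27.8, 27.4 and 13.1 CPM at days 1, 4 and 7 on average. Itpr3, used by many cells, had 43.7 ± 18.5 CPM at steady state (SD, n = 4) and 41.4 ± 18.5 CPM at day 7 (SD, n = 3).

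In the eicosanoid and cytokine list, 8 of 8 were tested and 0 were called by edgeR. At an unadjusted p under 0.05 there was 1 of 8 each at day 1 against steady state (all genes 17.2%), day 7 against steady state (13.5%), day 7 against day 1 (23.9%) and day 7 against day 4 (18.7%). DESeq2 called 1 of 8, Ltc4s, at day 1 against steady state (7% of all genes), where its edgeR log2 fold change was 0.89 (SE 0.289, adjusted p = 0.141). The prostaglandin synthase Ptgs1, which many stromal cells use, had 219 ± 98.7 CPM at steady state and 240 ± 70.6 CPM at day 7, and Pla2g4a, a phospholipase that frees arachidonic acid, had 119 ± 33.2 CPM at steady state. The r of Ptgs1 with the tuft pattern was −0.286. Ltc4s, the synthase of cysteinyl leukotrienes, had 19.9 ± 8.19 CPM at steady state and 37.0 ± 3.83, 28.2 ± 4.32 and 23.8 ± 6.05 CPM at days 1, 4 and 7.

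In the list of regulators, surface and structural genes, 14 of 14 were tested. DESeq2 called 2 of 14, Vil1 and Spib, at day 7 against steady state (5.41% of all genes). At day 7 against day 1 it called 2, Vil1 and Cd300lf (14.7%). For any condition it called 3, Vil1, Cd300lf and Krt18 (18.3%). DESeq2 also called Krt18 at day 4 against steady state (3.23%) and day 7 against day 4 (9.6%). Cd300lf was called by it at day 4 against day 1 (4.8%). At an unadjusted p under 0.05, edgeR gave 1, 1 and 3 of 14 for days 1, 4 and 7 against steady state (all genes 17.2%, 13% and 13.5%). It gave 2 for day 4 against day 1 (13.7%), 2 for day 7 against day 1 (23.9%), 2 for day 7 against day 4 (18.7%) and 4 for any condition (24%). Cd300lf, an immune receptor of tuft and myeloid cells, was the 1 of 14 called by edgeR at day 7 against day 1 (8.13% of all genes). Cd300lf fell there (log2 fold change −2.44, SE 0.662, edgeR adjusted p = 0.0406). It had 2.74, 0.475, 2.67 and 1.21 CPM at steady state and 0.516, 0.702 and 1.96 CPM at day 4. Day 1 lay above both, at 5.37, 4.64 and 5.99 CPM, while day 7, at 0.841, 1.52 and 0.569 CPM, overlapped both. Leaving out any 1 of the 6 libraries of days 1 and 7 ended the call, with edgeR adjusted p-values of 0.0652 to 0.124. So did the replicate block (0.102), the tag family (0.115), the pan-epithelial score (0.344) and the thymocyte score (0.0898). Myeloid markers, 5 genes all detected, summed to 66.5 to 121 CPM at day 1 and 34.4 to 130 CPM at day 7, and their part in the result was not tested. Krt18, a keratin of simple epithelia in TECs of all kinds, was the 1 of 14 called by edgeR at day 7 against day 4 (3.9% of all genes). Krt18 fell there (log2 fold change −1.77, SE 0.405, edgeR adjusted p = 0.0317). Its levels were 1280, 1436 and 934 CPM at day 4 and 459, 341 and 269 CPM at day 7, and it belongs to the pan-epithelial list itself. At steady state it had 244 to 678 CPM, which lay below day 4 and overlapped day 7. The call was lost without any 1 of the day 4 libraries, without replicate 2 or without replicate 3 of day 7 (adjusted p up to 0.137). It was also lost with the replicate block (adjusted p = 0.0877), the tag family (0.0502), the pan-epithelial score (0.563) and the thymocyte score (0.526). Krt18 also passed the test for any condition (edgeR adjusted p = 0.0300), as did 6.66% of all genes. That call was lost with the same 4 settings, with the erythroid score, and without replicate 1 of day 1, any 1 library of day 4, or replicate 2 or replicate 3 of day 7. The other genes named by level were Spib, a transcription factor with 75.6 CPM at steady state and 21.7 CPM at day 7 on average (edgeR adjusted p = 0.136), Sox9 with 72.2 CPM at steady state, Lrmp with 40.3 CPM and Sox4 with 29.2 CPM. Vil1, named here after its values were seen, had 5.54 CPM at steady state and 1.39 CPM at day 7 on average. Its edgeR log2 fold change at day 7 was −1.99 against steady state (SE 0.612, adjusted p = 0.157) and −1.95 against day 1 (SE 0.636, adjusted p = 0.0776).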

How the data were processed

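CD45- thymic cells were profiled by bulk RNA-seq in 13 libraries. The authors used Trimmomatic 0.38 for trimming, STAR 2.7.0e for alignment to GRCm38.p5 and featureCounts 1.6.3 for counting per gene, and they deposited raw counts, whole numbers that carry no normalization. Default counting does not use strand and drops reads that fit overlapping genes. The deposited exonic length of each gene was used for levels per kb and 0 columns of per-sample values were left out. Columns of the steady-state libraries carry no label number and were used as a group.

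Counts were tested with edgeR 4.0.16 in R 4.3.3, with all 13 libraries in 1 fit by condition, TMM normalization, filterByExpr() and the quasi-likelihood F-test, with Benjamini-Hochberg adjustment over 19984 genes. CPM use TMM library sizes. Standard errors are the log2 fold change divided by the square root of its F statistic, and intervals at 95% use the t distribution with 13 degrees of freedom, as in the test. The score of a marker list is its mean log2(CPM + 0.5). Symbols came from GENCODE M21, and promoters from RefSeq (7 of 10 members matched). No library was a copy of another (the closest pair had a chi-square of 40.4 per degree of freedom). The steps were tested on simulated data.

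Members and lists were chosen with earlier results of these data known. The named genes are the 10 members, called genes of the other tuft lists and up to 4 more per list by level, and the 10 genes outside the members most alike to the mean pattern. Alternatives were DESeq2 1.42.0, RLE normalization, no filter, at least 10 counts in every library, only the conditions compared, a replicate block, the tag family, pan-epithelial or thymocyte score as a covariate, and each library left out. The erythroid score as a covariate and the block on the libraries after TBI were chosen after seeing the data. Single-cell, spatial and imaging data were not analysed here.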

Additional observations from a re-analysis of the deposited data

How the results depend on the processing

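The count of 0 called members held in every comparison under DESeq2, RLE normalization, both other filters, fewer conditions in the fit, the replicate block, the tag family, the pan-epithelial and thymocyte scores and each library left out (range 0 to 0). With the erythroid score, 1 member, Gfi1b, was called at day 1 against steady state, day 7 against day 1, day 7 against day 4 and for any condition, with log2 fold changes at day 7 of −4.18 against day 1, −6.28 against day 4 and −0.056 against steady state, and with erythroid sums of 5.32 to 7.74 CPM at day 4 outside the range of the other conditions. The fold changes with day 7, Dclk1 at day 4 against day 1 and Plcb2 at day 4 against steady state gave 512 values under the alternatives, of which 28 changed sign and 484 did not, and other member fold changes were not followed. With the pan-epithelial score, values turned positive for Sh2d6 (0.050) and Chat (0.24) at day 7 against steady state, for Pou2f3 (0.15) and Chat (1.00) against day 1, and for Pou2f3 (0.52), Gnb3 (0.18), Avil (0.10), Sh2d6 (0.17) and Chat (1.74) against day 4. With the thymocyte score, Gfi1b was at −1.42, −2.72 and −4.17 at day 7 against steady state, day 1 and day 4, and Plcb2 at −0.96, −1.35 and −2.36, and at 1.40 for day 4 against steady state. Gfi1b at day 7 against day 1 was 0.00 with the tag family (−0.0029). Leaving out 1 library gave −1.66 to 0.85 for Gfi1b at day 7 against steady state, −1.57 to 1.02 against day 1 and −1.09 to 1.55 against day 4, with replicate 2 of day 7 behind each negative value, −0.62 to 0.67 for Plcb2 against steady state (−0.22 and −0.18 without the PBS libraries of day 4 and day 7 replicate 2, −0.62 without replicate 2 of day 7), and −0.076 to 0.21 for Dclk1 against day 4.

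Counts of called genes among the 35 tested genes of the other tuft lists were 0 for days 1, 4 and 7 against steady state and day 4 against day 1. They were 1 for day 7 against day 1 (8.13% of all genes), day 7 against day 4 (3.9%) and any condition (6.66%). DESeq2 gave 1, 1, 2, 1, 3, 1 and 3 of 35 in the same order, where it called 7%, 3.23%, 5.41%, 4.8%, 14.7%, 9.6% and 18.3% of all genes. Without a filter the counts were 1 of 37 at day 4 and at day 7 against steady state (250 and 627 of 37877 genes). They were 2 at day 7 against day 1 (2004 genes) and 2 for any condition (2252 genes). With at least 10 counts in every library the count at day 7 against day 1 was 0. With only the conditions compared it was 2 at day 7 against day 1 (1162 of 19984 genes) and 2 against day 4 (318 genes). The tag family, the pan-epithelial score and the thymocyte score each gave 0 for day 7 against day 1, day 7 against day 4 and any condition. The erythroid score gave 3, 0 and 3, where it called 1049, 43 and 1429 of 19984 genes. Leaving out 1 library gave 0 to 1 in each comparison with steady state, 0 at day 7 against day 1, 0 to 1 at day 7 against day 4 and 0 to 3 for any condition. The cause of these moves was not tested. Of the 10 genes most like the tuft pattern, 5 were shared when deviations from condition means were used and 10 with a pseudocount of 2 CPM.

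With the replicate number as a block, 0 members were called, and 0 other tuft genes at day 7 against day 1, at day 7 against day 4 and for any condition. The block on the 9 libraries after TBI also gave 0 at day 7 against day 1 and against day 4, and −0.20 for Gfi1b at day 7 against day 1. Deviations of libraries with the same number had a mean correlation of −0.252 over 9 pairs after TBI (−0.843 to 0.268), against 0.104 for other pairs, so the numbers were not taken to pair the libraries. Depth limits Il25, Chat and Gfi1b, with as few as 6, 10 and 10 counts in a library.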

Other observations

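Sox4 and Sox9 were low in 3 libraries in which Avil was not. Sox4, a transcription factor of many epithelia, had 1.75 CPM in replicate 1 of day 1 and 5.92 and 6.53 CPM in replicates 2 and 3 of day 4, against 14.0 to 49.6 CPM in the other 10 libraries. Sox9 had 10.6, 21.9 and 19.99 CPM in these 3 libraries, where Epcam had 14.0, 24.4 and 25.5 CPM. They were the libraries of days 1 and 4 whose column tags start with k3 or kk. In the other libraries of days 1 and 4, Sox9 had 93.4 to 98.8 CPM and Epcam 99.8 to 127 CPM. At steady state Sox9 had 84.7 and 75.1 CPM where Epcam had 155 and 33.4 CPM, and in replicate 3 of day 7, with 23.0 CPM of Epcam, Sox4 had 29.2 CPM and Sox9 39.1 CPM. Avil, at 68.6, 49.1 and 83.9 CPM in the 3 libraries, was above its day 7 levels there. Sox9 also had 14.2 CPM in replicate 2 of day 7. These genes were chosen after their values were seen, and no test was made.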
